A study of Homo sapiens with 8 samples.

Results

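O-mannosylation is the attachment of mannose to serine and threonine of proteins that enter the secretory pathway. The 7 genes described here are TMTC1, TMTC2, TMTC3 and TMTC4, the paired genes POMT1 and POMT2, and POMGNT1. They were taken by symbol from the 60664 genes of both count tables, and each symbol matched 1 row in each table. TMTC3 was picked for its rise at the mitochondrial surface, so its values there are given as a description with no test.

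POMT1 and POMT2 form an enzyme complex of the endoplasmic reticulum (ER) that starts the O-mannosyl glycans of alpha-dystroglycan, a receptor for laminin. The TMTC proteins are multipass ER membrane proteins with tetratricopeptide repeats, which O-mannosylate cadherins and protocadherins. Both kinds of enzyme take mannose from dolichol-phosphate-mannose. POMGNT1 acts later, in the Golgi, where it adds N-acetylglucosamine to the O-linked mannose, and is thus not itself a mannosyltransferase. Loss of the POMT genes or POMGNT1 causes dystroglycanopathies, which affect muscle, brain and eye.

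The libraries came from HEK293T, a transformed line of human embryonic kidney cells, expressing APEX2, a peroxidase that tags nearby RNA with biotin. The enzyme was sent either to the nucleus, under the label NLS, or to the surface of mitochondria, under the label OMM for outer mitochondrial membrane. Biotin-tagged RNA was captured with streptavidin and sequenced. Each site had 2 labelled libraries and 2 controls from APEX2 cells that were not labelled, 8 libraries in all. The NLS libraries, whose sample titles carry the word ribominus, were made from total RNA (SMARTer stranded kit). Those for OMM, whose titles carry the word trizol, were made from mRNA (TruSeq stranded kit). Site, kit and RNA selection therefore cannot be told apart. Libraries are named by the number in their column name (1 and 3 at NLS, controls 3 and 4 and labelled 2 and 3 at OMM). These numbers differ from those in the sample titles, so a column was tied to its group and not to a single sample. Whether replicate libraries were grown as separate cultures is in no label, so a p-value reflects the variation from library to library and may be technical. How the controls were kept unlabelled, and whether the APEX2 cells were 1 clone, is not given in the sources used here.

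Total counts were 8039176 to 21096586 per NLS library and 34705126 to 52421161 per OMM library. The biological coefficient of variation, the spread between libraries of a group beyond counting error, was 0.166 at NLS and 0.958 at OMM. Of the NLS tests 57.3% of 20858 genes passed an adjusted p of 0.05, and of the OMM tests 0.194% of 14438 genes. Genes encoded in mitochondrial DNA took 3.19% to 4.49% of the counts in NLS controls and 0.812% to 0.850% in labelled NLS libraries, against 4.29% to 7.19% and 1.17% to 1.65% at OMM, and the part of this difference in the results was not tested. The 5 genes taken as HEK293T markers (VIM, KRT8, KRT18, NEFM and LIN28B) were found in all 8 libraries, with a summed level of 201 to 758 counts per 1000000 counts (CPM, scaled by the trimmed mean of M-values, TMM) at NLS, where 5 of 5 fell, and of 610 to 689 in the OMM libraries. MALAT1, NEAT1 and KCNQ1OT1, RNAs that stay in the nucleus, all rose at NLS. Of 6 markers of blood, liver, muscle and endothelium (PTPRC, CD3E, HBB, ALB, MYH7 and PECAM1), 6 had 0 counts in the 4 OMM libraries, and their sum was 0.0883 to 2.00 CPM at NLS.

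The first 60 coding bases of the 7 genes are shown because the coding sequences differ in base composition, a property that the choice of genes did not use. Each is read 5′ to 3′ from the GENCODE 29 transcript chosen for that gene (GRCh38), which need not be its principal transcript. Capitals mark the start codon.
TMTC1, chr12:29783692-29783751, minus strand: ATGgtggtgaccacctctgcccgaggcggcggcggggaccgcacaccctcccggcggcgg
TMTC2, chr12:82687587-82687646, plus strand: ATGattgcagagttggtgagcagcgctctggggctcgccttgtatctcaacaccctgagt
TMTC3, chr12:88148316-88148375, plus strand: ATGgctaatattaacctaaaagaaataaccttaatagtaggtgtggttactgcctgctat
TMTC4, chr13:100668681-100668740, minus strand: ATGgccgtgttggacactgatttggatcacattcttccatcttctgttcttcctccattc
POMT1, chr9:131504219-131504278, plus strand: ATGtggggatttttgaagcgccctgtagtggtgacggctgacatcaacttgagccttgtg
POMT2, chr14:77320622-77320681, minus strand: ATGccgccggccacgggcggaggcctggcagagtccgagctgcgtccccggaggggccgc
POMGNT1, chr1:46197762-46197821, minus strand: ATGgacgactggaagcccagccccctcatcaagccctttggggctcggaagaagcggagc

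In the stretch of TMTC3 40 of 60 bases were A or T, against 12 in that of POMT2 and 13 in that of TMTC1. Over the whole coding sequence the GC content was 37.0% in TMTC3, 46.7% in TMTC2, 50.5% in TMTC4 and 51.2% in TMTC1. It was 56.0% in POMT2, 56.6% in POMT1 and 56.9% in POMGNT1. At the third codon position the GC content ran from 31.5% in TMTC3 to 73.4% in POMT1. Only 0.912% of the 12166 coding genes tested at OMM that had a coding sequence had a lower coding GC content than TMTC3.

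TMTC3 (ENSG00000139324) lies on chromosome 12 from 88142296 to 88199887, a span of 57.6 kb, and its coding sequence holds 2742 bases. Its level moved in opposite directions at the 2 sites. At OMM its CPM was 33.8 and 33.9 in controls 3 and 4 and 196 and 230 in labelled libraries 2 and 3. Both labelled libraries lay far above both controls, and the 2 controls were nearly equal. The means were 33.8 ± 0.0660 and 213 ± 24.1 CPM (SD, n = 2 each). The log2 fold change was thus 2.66 ± 0.27 (SE), or 6.30-fold. This is the value that chose the gene. The fold ranked 389 from the top of 14438 genes at OMM. In these bulk libraries every level is a share of the library. A fold change compares the share in labelled libraries with that in controls, and rose and fell are used in this sense. The amount of an RNA per cell, and the number of cells that hold it, were not measured.

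In the labelled NLS libraries TMTC3 fell relative to the NLS controls. Its CPM was 146 and 136 in controls 1 and 3 and 48.9 and 60.01 in labelled libraries 1 and 3. The groups did not overlap, and the mean went from 141 ± 7.51 to 54.5 ± 7.84 CPM (SD, n = 2 each). The log2 fold change was -1.37 ± 0.13 (SE; edgeR adjusted p = 6.94e-05), a 2.59-fold lower level, and 9.29% of tested genes had a lower one. The fall passed the test under every alternative run, with a log2 fold change of -1.49 to -0.86. The last value was with library size alone, a scaling that moved the median of all genes from 0.14 to 0.66. In the authors' deposited table the log2 fold changes of TMTC3 were -1.33 at NLS and 2.66 at OMM.

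**Figure D1:**
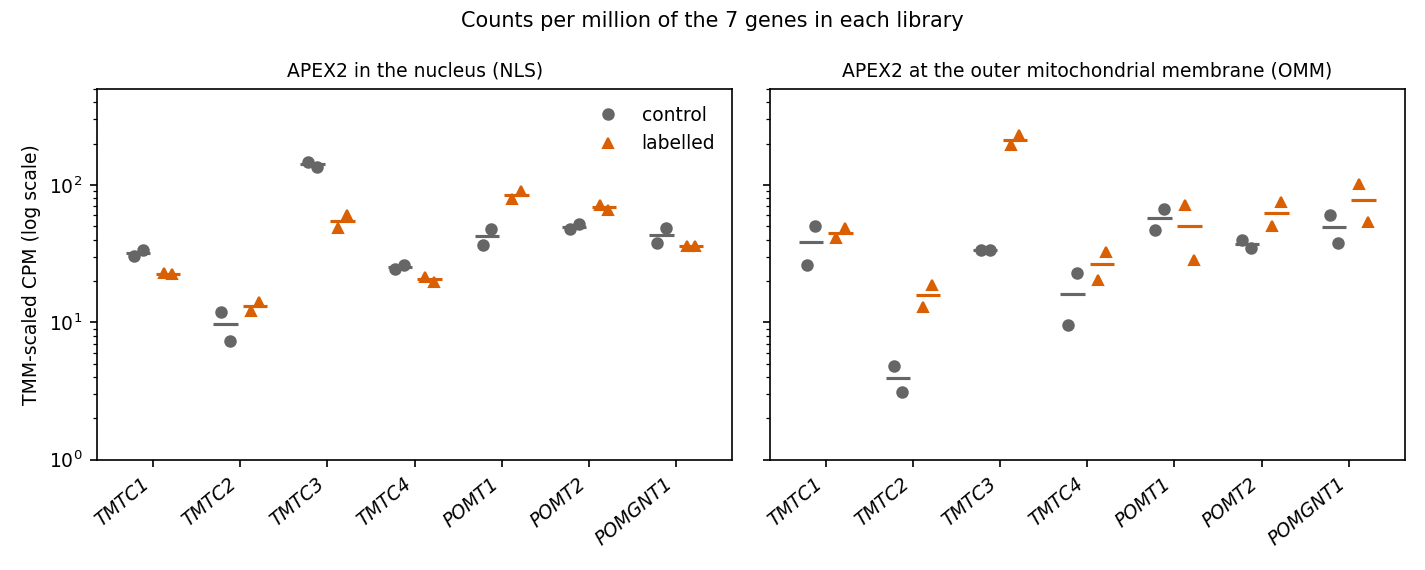
TMM-scaled CPM (log axis) of the 7 genes in each of the 8 libraries, NLS at left and OMM at right; grey circles are controls, orange triangles are labelled libraries and bars are means of 2 libraries. TMTC3 is the gene with labelled libraries below its controls at NLS (48.9 and 60.01 against 146 and 136 CPM) and above them at OMM (196 and 230 against 33.8 and 33.9 CPM).

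TMTC2 (ENSG00000179104, chromosome 12 from 82686880 to 83134870, 448.0 kb), another member of the cadherin-directed family, had the lowest counts of the 7 genes. At OMM the controls held 4.78 and 3.13 CPM, and the labelled libraries 12.96 and 18.6. The groups did not overlap, but the log2 fold change of 1.99 ± 1.11 (SE) did not pass edgeR's test (adjusted p = 0.577). DESeq2 gave it an adjusted p of 0.0311 on the same genes, and the p in the authors' deposited table was 0.0421. Of OMM genes with a p there, 12.2% had one under 0.05. At NLS the controls held 11.9 and 7.37 CPM and the labelled libraries 12.1 and 14.02, so that control 1 reached nearly as high as a labelled library. The NLS log2 fold change of 0.43 ± 0.29 did not pass (adjusted p = 0.227), whereas without control 1 it was 0.81 (adjusted p = 0.00125), without control 3 it was 0.12 (adjusted p = 0.620) and with library size alone 0.95 (adjusted p = 0.0236).

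TMTC1 (ENSG00000133687, chromosome 12 from 29500840 to 29784759, 283.9 kb) had 30.7 and 33.4 CPM in the NLS controls and 23.0 and 22.3 CPM in the labelled NLS libraries. The labelled values lay below both controls, and the log2 fold change of -0.50 ± 0.15 passed the test (edgeR adjusted p = 0.0226). The call was lost with DESeq2 (adjusted p = 0.0984), without labelled library 1 (adjusted p = 0.149) and without labelled library 3 (adjusted p = 0.198), and with library size alone the change was 0.02 (adjusted p = 0.919). At OMM the values of 26.3 and 50.1 CPM in the controls enclosed those of 41.3 and 48.4 CPM in the labelled libraries. TMTC4 (ENSG00000125247, chromosome 13 from 100603927 to 100675093, 71.2 kb) had 24.6 and 26.0 CPM in the NLS controls and 21.6 and 19.7 CPM when labelled. Its NLS log2 fold change of -0.29 ± 0.16 did not pass (adjusted p = 0.158) and turned to 0.23 with library size alone. At OMM TMTC4 ranged from 9.54 to 22.8 CPM in controls and from 20.5 to 32.6 CPM in labelled libraries, which overlap. Its OMM log2 fold change of 0.72 ± 0.66 ranged from 0.22 without control 3 to 1.48 without control 4, and neither passed.

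Both subunit genes of the POMT complex rose in the labelled NLS libraries, as did 28.8% of all tested genes. By log2 fold change POMT1 lay above 68.25% of tested genes and POMT2 above 58.31%. POMT1 (ENSG00000130714, chromosome 9 from 131502902 to 131523806, 20.9 kb) had 36.8 and 48.2 CPM without labelling and 79.6 and 90.4 CPM with it. The groups were well apart, with means of 42.5 ± 8.06 and 85.0 ± 7.68 CPM (SD, n = 2 each). This is a log2 fold change of 1.00 ± 0.15 (edgeR adjusted p = 0.000917), which stayed between 0.81 and 1.20 when each library was left out in turn. It was 1.52 with library size alone. In the joint fit of the 8 libraries, where 0.915% of all genes were called higher, the call was lost (edgeR adjusted p = 0.225). POMT2 (ENSG00000009830, chromosome 14 from 77274956 to 77320884, 45.9 kb) stood at 47.6 and 51.6 CPM in controls 1 and 3, and labelled libraries 1 and 3 held 71.4 and 65.9 CPM, above both. Its rise was smaller, with a log2 fold change of 0.47 ± 0.12 (adjusted p = 0.010), and it did not pass without labelled library 1 (adjusted p = 0.0718) or in the joint fit (adjusted p = 0.308). With library size alone it was 0.99. The difference between the changes of the 2 subunit genes was not tested.

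At OMM the 2 POMT genes did not pass the test. For POMT1 the controls held 47.3 and 66.9 CPM, and labelled libraries 2 and 3 held 71.5 and 28.6, so the labelled pair spanned both controls. Its log2 fold change of -0.19 ± 0.50 turned to 0.33 without labelled library 3 and to 0.09 without control 4. For POMT2 the controls held 39.9 and 34.6 CPM, and the labelled libraries 49.96 and 75.5. The groups did not overlap, but the log2 fold change of 0.75 ± 0.41 did not pass (adjusted p = 0.568).

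POMGNT1 (ENSG00000085998, chromosome 1 from 46188682 to 46220305, 31.6 kb), the Golgi enzyme that extends the O-linked mannose, had 37.6 and 48.2 CPM in the NLS controls and 35.7 and 36.0 CPM in the labelled NLS libraries. The log2 fold change of -0.26 ± 0.16 did not pass (adjusted p = 0.187). Without control 1 it was -0.44 (adjusted p = 0.0108), without control 3 it was -0.073 (adjusted p = 0.703) and with library size alone it was 0.26. At OMM it ranged from 37.9 to 60.8 CPM in controls and from 53.6 to 102 CPM in labelled libraries, which overlap, with a log2 fold change of 0.66 ± 0.44 that ranged from 0.12 without labelled library 2 to 1.05 without labelled library 3. Of its exonic bases, 601 overlap exons of LURAP1 on the opposite strand, and the strand setting of the counting is not given in the sources used here, so its reads are uncertain. Exons of POMT1 overlap opposite-strand genes by 68 bases and those of POMT2 by 1 base, while those of the TMTC genes overlap no other gene. Of the 31-base words in their transcripts, TMTC3 and TMTC2 shared 0 with transcripts of other genes, TMTC1, TMTC4, POMT1 and POMT2 shared 0.831% to 2.43%, and POMGNT1 shared 896 of 6401.

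Of the 7 genes, 7 passed the filter on low counts at both sites. At NLS 2 rose (POMT1 and POMT2) and 2 fell (TMTC3 and TMTC1) by edgeR, so 4 of 7 passed where 57.3% of all genes did, which is near that background. The median log2 fold change of the 7 was -0.26, against 0.14 for all genes and -0.26 for coding genes. In the libraries at NLS 3 of 7 genes had both labelled values above both controls and 4 had both below, against 45.1% and 37.7% of all genes. With DESeq2 the NLS counts were 2 higher and 1 lower, where 27.3% and 25.2% of all genes were, and with library size alone 3 and 1, where 43.7% and 16.1% were. An unadjusted p under 0.05 was held by 4 of the 7, against 62.6% of genes, and TMTC3, POMT1 and POMT2, 3 of the 7, had a p under 0.05 in the authors' deposited table, against 42.3%. At OMM 0 of the 6 genes other than TMTC3 passed edgeR's test, 0 had an unadjusted p under 0.05, and 1 (TMTC2) passed with DESeq2. Of all genes 0.194% passed edgeR's OMM test and 10.6% had an unadjusted p under 0.05. By DESeq2 6.57% of genes tested at OMM rose and 6.15% fell. Of those 6, TMTC2 and POMT2 had both labelled OMM values above both controls and 0 had both below, against 21.3% and 22.5% of all genes.

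**Figure D2:**
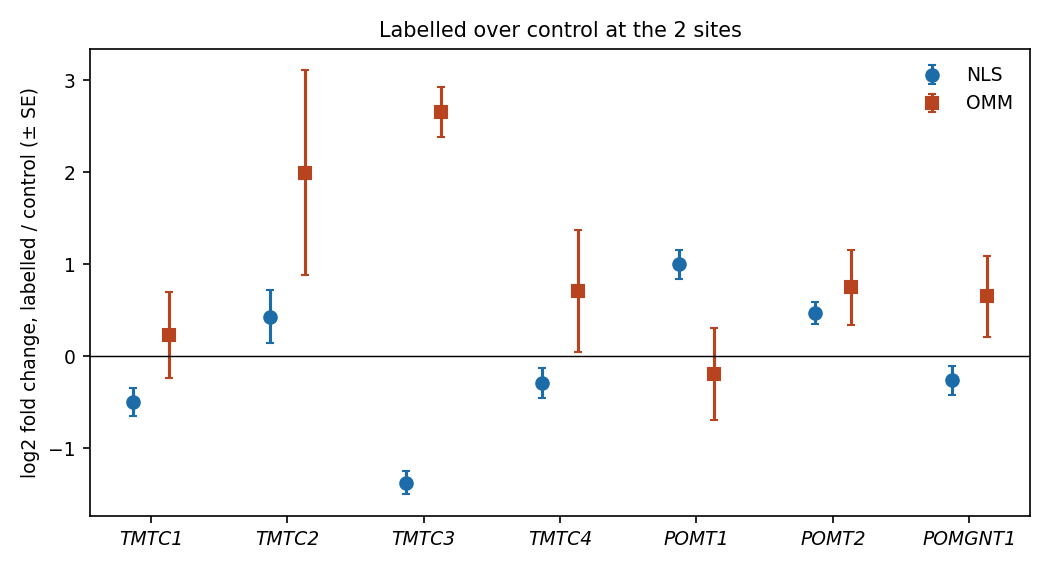
Log2 fold change of labelled over control libraries for the 7 genes (n = 2 libraries per group), blue circles at NLS and red squares at OMM. Bars are 1 SE, computed from the log2 fold change and edgeR's F statistic. TMTC3 lies at -1.37 at NLS and 2.66 at OMM, and the OMM bars of the other genes are wider than their NLS bars.

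The difference between the labelling effects, OMM minus NLS, was taken from a joint fit of the 8 libraries, in which 8.14% of 23178 genes passed, 6.73% with a higher and 1.41% with a lower effect at OMM. Of the 6 genes other than TMTC3, 0 passed edgeR's test and 0 had an unadjusted p under 0.05, against 23.1% of genes. DESeq2 called 1 of the 6 lower, POMT1, and 0 higher, where 10.4% and 9.35% of all genes were called. With library size alone 0 of the 6 passed, against 2.52% higher and 1.64% lower. For POMT1 the difference was negative, at -1.16 ± 0.61 (SE; edgeR adjusted p = 0.328). The difference was -1.59 with DESeq2 (adjusted p = 0.0384), and it also passed edgeR's test without labelled OMM library 2 (adjusted p = 0.0354). The other differences ran from 0.30 ± 0.34 for POMT2 to 1.58 ± 0.90 for TMTC2 (adjusted p = 0.363). That of POMT2 turned to -0.12 with DESeq2 and with its size factors, to -0.14 with library size alone and to -0.022 without labelled OMM library 3. For TMTC3 the difference of 4.05 ± 0.24 is a description, since its OMM rise chose it.

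**Figure D3:**
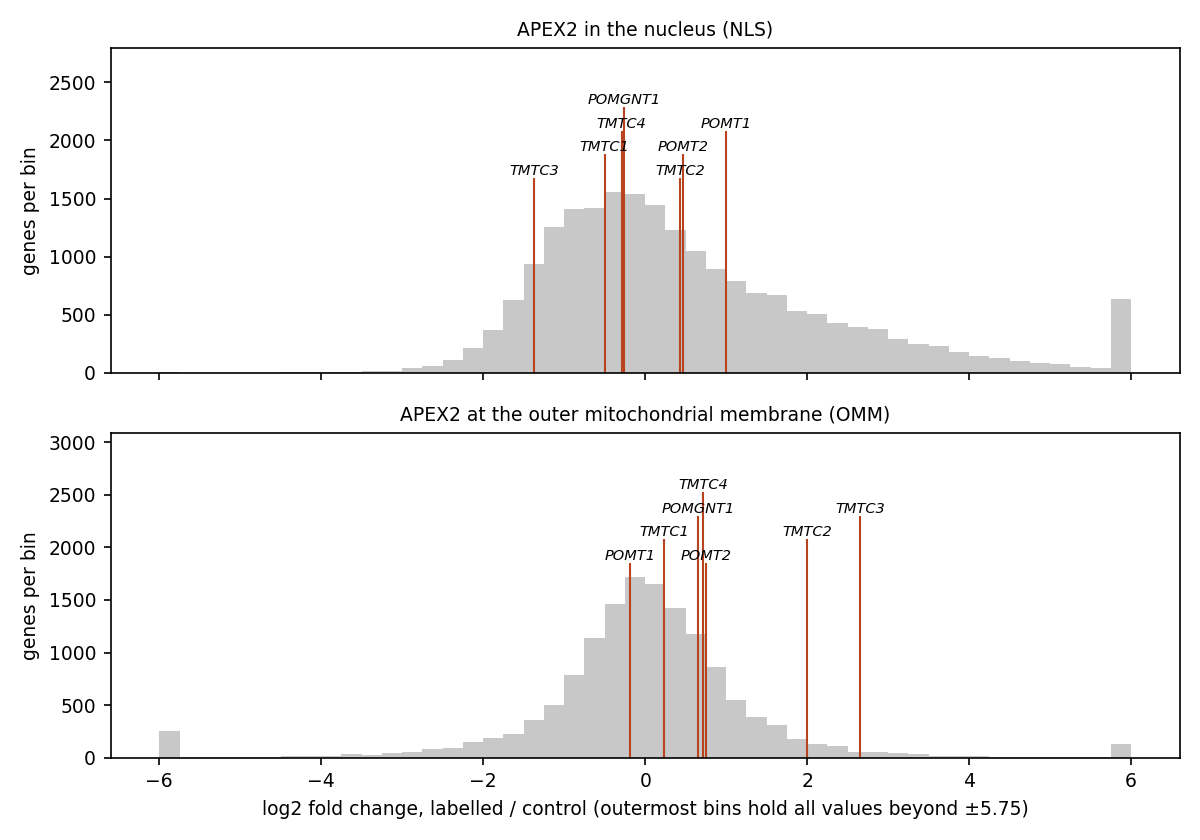
Number of genes per 0.25-wide bin of log2 fold change at NLS (20858 genes) and OMM (14438 genes), with red lines at the values of the 7 genes. At OMM TMTC3 and TMTC2 lie in the right-hand tail, above 97.3% and 95.3% of genes, and at NLS 9.29% of genes lie below TMTC3.

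Levels per length put the 7 genes on 1 scale, as CPM per kilobase of merged exons (RPKM). Merged exons pool all annotated transcripts of a gene, and the order of the genes depends on this choice of length. They span 7.33 kb in TMTC3, whose chosen transcript has 7203 bases. In POMGNT1 they span 6.2 kb against 2728 bases, and in TMTC1 14.64 kb against 4228 bases. No order by transcript length was made. In the NLS controls TMTC3 was the highest, at 19.2 ± 1.02 RPKM (SD, n = 2), ahead of POMT1 at 7.002 ± 1.33 and POMGNT1 at 6.93 ± 1.21, which did not differ beyond their spread. POMT2 followed at 4.96 ± 0.286, TMTC4 at 4.03 ± 0.164, TMTC1 at 2.19 ± 0.131 and TMTC2 at 1.16 ± 0.388. In the labelled NLS libraries POMT1 led at 14.01 ± 1.265 RPKM, and TMTC3 at 7.43 ± 1.07 lay within its spread of POMT2 at 6.86 ± 0.384. TMTC2 and TMTC1 were lowest there, at 1.57 ± 0.163 and 1.55 ± 0.0310.

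By the same merged exons, the order was different in the OMM libraries. In the OMM controls POMT1 was first at 9.41 ± 2.29 RPKM and POMGNT1 next at 7.96 ± 2.61, which overlap. TMTC3 came next at 4.62 ± 0.00901, followed by POMT2 at 3.72 ± 0.376, while TMTC1 at 2.61 ± 1.15 and TMTC4 at 2.58 ± 1.49 could not be ordered. In the labelled OMM libraries TMTC3 was first at 29.1 ± 3.29 RPKM, ahead of POMGNT1 at 12.5 ± 5.51 and POMT1 at 8.25 ± 4.995, with TMTC2 last at 1.90 ± 0.480. The levels of TMTC3 in the controls of the 2 sites, 19.2 and 4.62 RPKM, come from different kits and were normalized separately, and no test was made between them.

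Coding GC content and length moved with fold change across genes, which are not independent replicates. At OMM the Spearman correlation of fold change was -0.192 with coding GC content and 0.313 with transcript length over 12166 coding genes, and at NLS 0.060 and 0.134 over 13492. Coding genes were put in 10 bins of equal number by GC content. Genes in the bin of lowest GC content had a median log2 fold change of 0.26 at OMM, and TMTC3, which belongs to it, lay above 98.7% of them. TMTC2 lay above 96.2% of the bin it belongs to, whose median was 0.12. POMT1 lay above 43.0% of its bin at OMM but above 84.5% at NLS, where the median of that bin was -0.17. TMTC3 lay above 7.85% of its bin at NLS. The part of GC content and length in the results was not tested beyond these values.

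**Figure D4:**
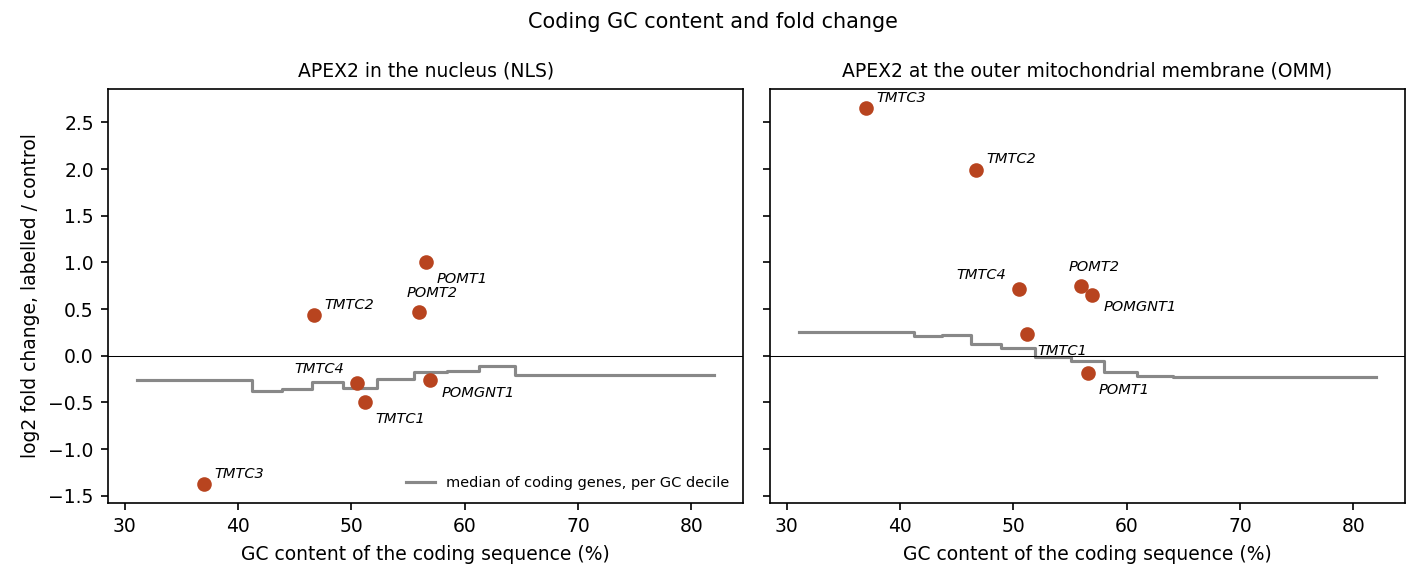
Log2 fold change of the 7 genes (red points) against the GC content of their coding sequence in percent, at NLS and OMM; the grey steps are medians of all tested coding genes in 10 bins of equal gene number. At OMM TMTC3 at 37.0% GC lies 2.40 above the median of its bin, and at NLS it lies 1.12 below.

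The genes most like TMTC3 over the 8 libraries were found by the distance between log2 CPM values, each centred within its site, among 11152 genes. They were GPC4, a cell-surface glypican, at a distance of 0.653, CERS6, a ceramide synthase of the ER, at 0.658, and PANX1, a membrane channel, at 0.686. SLC39A10, a zinc transporter, followed at 0.761 and CPD, a membrane carboxypeptidase, at 0.789. Their log2 fold changes ran from -1.57 (GPC4) to -1.15 (CERS6) at NLS and from 1.96 (SLC39A10 and CPD) to 2.42 (GPC4) at OMM, as a description with no test. None of the other 6 genes was among them. TMTC2 was nearest, at a distance of 2.06 and rank 866 of 11151, and POMT1 farthest, at 3.97 and rank 9479.

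The wider O-mannosylation pathway was counted in 4 lists of 61 genes in all. At NLS 55 were tested, and 12 rose and 19 fell, against 28.8% and 28.5% of all genes. At OMM 52 were tested and 0 passed edgeR's test in either direction, against 0.139% higher and 0.0554% lower over all genes. At an unadjusted p under 0.05 at OMM there were 3 of the dystroglycan list, 1 of the donor list, 3 of the other mannosyltransferases and 5 of the acceptors. DESeq2 called 3, 1, 3 and 8 of these lists higher at OMM and 0 lower, against 6.57% and 6.15% of all genes. In the joint fit 0 genes of the 4 lists rose at NLS, where 0.915% of all genes did, and 3 of the dystroglycan list, 1 of the donor list and 3 of the acceptors fell, where 9.41% of all genes did. At OMM both labelled libraries lay above both controls for 7 of 11 dystroglycan genes and below for 1, for 2 and 4 of 13 donor genes, for 4 and 0 of 9 other mannosyltransferases and for 9 and 0 of 19 acceptors, against 21.3% and 22.5% of all genes.

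Alpha-dystroglycan, encoded by DAG1, and 10 genes that build its O-mannosyl glycan had 3 of 11 higher and 4 lower at NLS, against 28.8% and 28.5% of all genes. Their median log2 fold change was 0.21, against 0.14 for all genes and -0.26 for coding genes. The median was -0.095 without control 3, -0.14 without labelled library 3 and 0.72 with library size alone, where that of all genes was 0.66. Without control 1 the genes that rose numbered 5, and 37.5% of all genes rose. Among those that rose was B3GALNT2, an N-acetylgalactosaminyltransferase, with a log2 fold change of 0.41 ± 0.12 (SE). B4GAT1, a glucuronyltransferase of the same glycan, gave -2.07 ± 0.15 and DAG1 itself -1.64 ± 0.10. POMGNT2, the enzyme that sets the functional glycan apart from the POMGNT1 branch, gave -1.29 ± 0.17, and the O-mannose kinase POMK -0.58 ± 0.11. At OMM DAG1 had 218 ± 13.8 CPM in controls and 473 ± 143 CPM in labelled libraries (SD, n = 2 each), and its log2 fold change of 1.11 ± 0.25 did not pass (adjusted p = 0.149). POMK had 51.8 ± 31.7 and 176 ± 6.28 CPM, with a log2 fold change of 1.76 ± 0.43 (adjusted p = 0.184). The OMM median of the list was 0.73, against 0.00 for all genes, and leaving out a library called 1 (without control 4 or labelled library 2) or 2 (without control 3 or labelled library 3) of its genes higher. The share of all genes called higher was 0.769% and 1.01% in the first pair of settings and 2.12% and 1.24% in the other.

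Genes that supply dolichol-phosphate-mannose had 3 of 13 higher and 6 lower at NLS, against 28.8% and 28.5% of all genes. Their median was -0.37, against -0.26 for coding genes. With library size alone 5 rose and 3 fell (median 0.15), where 43.7% and 16.1% of all genes did (median 0.66). PMM2, a phosphomannomutase, rose with a log2 fold change of 1.15 ± 0.13, as did DHDDS (0.80 ± 0.13), a subunit of the enzyme that makes the dolichol chain, and PMM1 (0.73 ± 0.18). NUS1, the partner of DHDDS, fell at -1.58 ± 0.11, so the 2 subunit genes of that enzyme changed in opposite directions. DPM3, a subunit of dolichol-phosphate-mannose synthase, gave -1.49 ± 0.26, DOLK, the dolichol kinase, -1.10 ± 0.21, and MPDU1, which is needed to use the donor, -0.87 ± 0.28. At OMM the list median was -0.24, and without labelled library 3 edgeR called 1 gene of it lower, as it did 1.70% of all genes. NUS1 had 77.8 ± 6.22 CPM in OMM controls and 148 ± 49.5 CPM in labelled libraries (log2 fold change 0.93 ± 0.32, adjusted p = 0.335), and MPI, which makes mannose-6-phosphate, had 136 ± 32.1 and 135 ± 57.5 CPM.

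Other enzymes that take mannose from the same donor had 2 of 10 higher and 3 lower at NLS, against 28.8% and 28.5% of all genes. Their median was 0.23, against -0.26 for coding genes. With library size alone 43.7% and 16.1% of all genes were higher and lower, and 6 and 2 of the list were. Those that rose numbered 4 without control 1 or control 3, where 37.5% and 40.7% of all genes rose, and 1 without labelled library 3, where 13.8% did. TMEM260, the O-mannosyltransferase of plexins and MET, rose with a log2 fold change of 0.78 ± 0.19, and the C-mannosyltransferase DPY19L3 rose by 0.41 ± 0.13. Its relative DPY19L1 fell at -1.34 ± 0.13, as did ALG3 of N-glycan assembly at -1.35 ± 0.16 and PIGM of glycolipid anchor assembly at -0.68 ± 0.18. At OMM 9 of the 10 were tested and the median was 0.99. PIGM went from 44.9 ± 10.1 to 89.1 ± 14.5 CPM at OMM (0.99 ± 0.36, adjusted p = 0.368) and DPY19L1 from 56.7 ± 19.5 to 96.9 ± 40.2 CPM (0.77 ± 0.42, adjusted p = 0.563).

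Of 27 other proteins that carry O-mannose, or belong to families that do, 21 were tested at NLS. There 4 rose and 6 fell, against 28.8% and 28.5% of all genes. Their median was 0.13, against -0.26 for coding genes. With library size alone 43.7% and 16.1% of all genes rose and fell, and 10 and 2 of the list did. Those that rose numbered 8 without control 3, where 40.7% of all genes rose, and 2 without labelled library 1, where 14.5% did. The plexin genes PLXNA3 and PLXNA2 rose with log2 fold changes of 0.82 ± 0.14 and 0.73 ± 0.18, and the protocadherin gene PCDH9 by 0.54 ± 0.09. MST1R also rose, on 4 and 0 counts in the controls against 27 and 19 in the labelled libraries. CDH1, epithelial cadherin, fell at -1.73 ± 0.52, MET, a receptor kinase, at -1.12 ± 0.12, CDH2, neural cadherin, at -1.03 ± 0.10 and PCDH10 at -0.74 ± 0.14. At OMM 19 were tested and 0 passed, with a median of 1.04. Without control 3, labelled library 2 or labelled library 3, edgeR called 2, 1 and 3 of them higher, against 2.12%, 1.01% and 1.24% of all genes. CDH2, the acceptor gene with the highest OMM level, went from 107 ± 20.2 to 244 ± 47.2 CPM (1.19 ± 0.27, adjusted p = 0.150), and PCDH9 from 83.4 ± 26.9 to 193 ± 19.9 CPM (1.21 ± 0.30, adjusted p = 0.193).

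**Figure D5:**
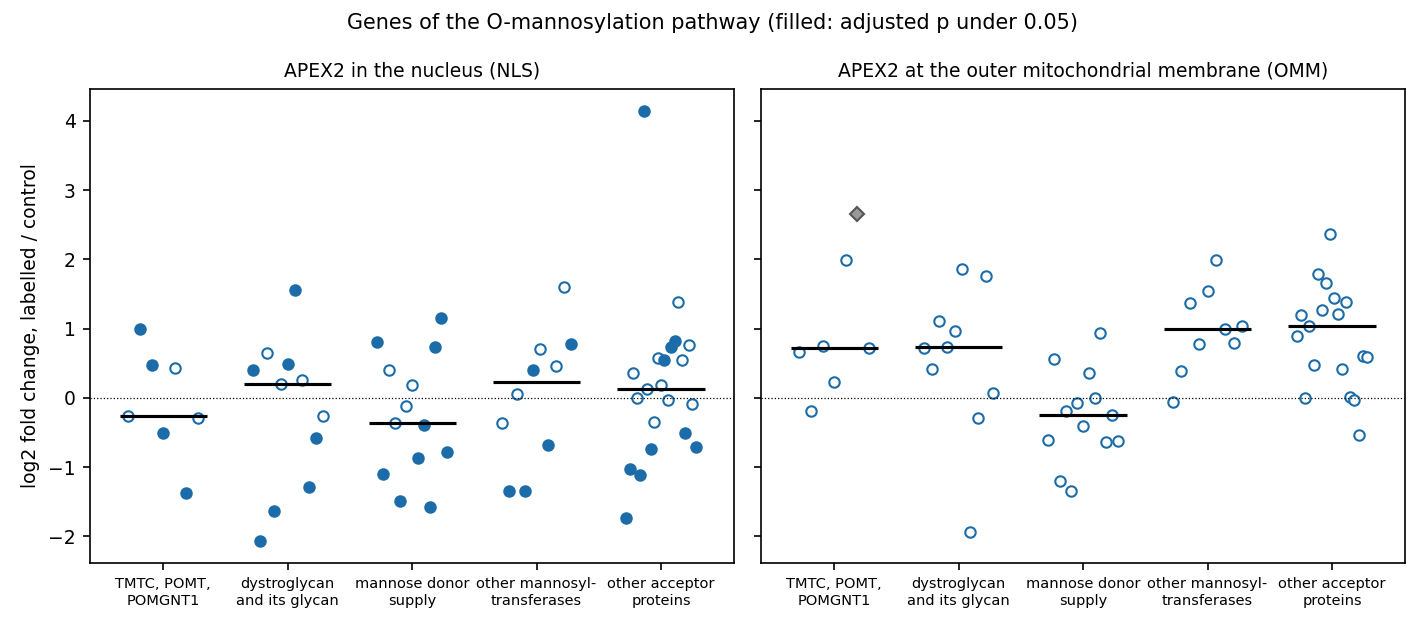
Log2 fold change of each tested gene of the 7 and of the 4 pathway lists at NLS and OMM; filled circles passed an adjusted p of 0.05 by edgeR, open circles did not, the grey diamond is TMTC3 at OMM (not tested because chosen by it), bars are list medians, and 2 genes with a group at 0 counts at OMM are not drawn. Filled circles lie on both sides of 0 in each list at NLS, and 0 circles are filled at OMM.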

How the data were processed

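The deposited count of each gene is a whole number of reads. The submitters' processing notes name STAR, HTSeq, Trimmomatic, SAMtools, bedtools and DESeq2, with builds hg38 and GRCh38.p13. The sources used here do not give versions, the strand setting or the annotation release. On how captured RNA was released the sources differ. The series text names Proteinase K for NLS and TRIzol for OMM, and the OMM sample titles also name TRIzol. The sample labels otherwise name RNeasy. Each deposited table also holds the authors' log2 fold change and p-value per gene. A run of DESeq2 1.42.0 matched their log2 fold changes within 0.01 for 100% of genes, and its adjusted p matched their p-value within 1% for 100% (NLS) and 99.99% (OMM). Their p-value is therefore taken as adjusted.

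Columns were given to groups by name; 4 count columns matched no sample and were not used. Rows without a gene name numbered 0. Counts were tested with edgeR 4.0.16 (robust quasi-likelihood F test, TMM, filterByExpr with minimum count 10, prior count 0.125, Benjamini-Hochberg over all tested genes, threshold 0.05, two-sided) in R 4.3.3, each site apart, with a joint fit of 8 libraries for the difference. The SE of a log2 fold change was computed as its absolute value over the square root of edgeR's F statistic. The procedure was tested on simulated data with known changes. Of 100 genes given a log2 fold change of 1 in either direction, 48 were called at NLS and 5 at OMM. With a change of 2, 61 and 34 of 100 were called. In the same runs 12 unchanged genes at NLS and 9 at OMM were called, with 19554 and 13624 genes tested. The simulated NLS libraries held a far smaller share of changed genes than the 57.3% that passed in the real ones. The shares called there thus do not carry over to the real NLS test. A gene that did not pass at OMM may thus still have changed. A floor of 3 counts is 0.142 to 0.373 CPM in NLS libraries and 0.0572 to 0.0864 in OMM libraries, for counting error only. Lengths, coordinates and coding sequences are from GENCODE 29 (GRCh38); per-length levels use the merged exons of each gene. For the coding sequence, complete coding transcripts were sorted by the name of their APPRIS label and then by the longest coding sequence. In that order a transcript labelled alternative came before any labelled principal. Where a gene has both, its coding sequence, GC content and transcript length are therefore those of an alternative transcript.

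The members and lists were chosen with earlier results of these data known. Of each list, up to 4 genes past the threshold per direction were named, largest change first (some are not reported here), or, where 0 passed, the 2 with the highest mean CPM; the 5 genes nearest to TMTC3 had a mean log2 CPM of at least 2 at both sites. Within groups libraries differed by more than counting error (chi-square per degree of freedom 3.34 to 203).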

Additional observations from a re-analysis of the deposited data

Results flagged for a closer look

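TMTC3 moved in opposite directions at the 2 sites: both labelled libraries lay below both controls at NLS and above both controls at OMM. The difference of its log2 fold changes, OMM minus NLS, was 4.05. That difference was not tested, because the rise at OMM chose the gene.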

How the results depend on the processing

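The alternatives were DESeq2, DESeq2-type size factors, library size alone, no filter on low counts, a fit without robust estimation, each library left out in turn, a replicate block at NLS and a joint fit of the 8 libraries. At NLS the genes of the 7 that rose numbered 2, where 28.8% of all genes rose. They numbered 0 in the joint fit, which shares the OMM spread and in which 0.915% of all genes rose. Those of the 7 that fell numbered 2, where 28.5% of all genes fell. They numbered 1 with DESeq2 (25.2% of all genes), with library size alone (16.1%) and in the joint fit (9.41%). In the joint fit POMT1 had an adjusted p of 0.225 and POMT2 of 0.308. With library size alone TMTC1, TMTC4 and POMGNT1 turned to 0.019, 0.23 and 0.26 at NLS. At OMM 0 of the 6 genes other than TMTC3 rose and 0 fell in all settings but DESeq2, which called 1 higher. On leaving out a library at OMM, TMTC1 ranged from -0.16 (without control 3) to 0.77, and POMT1 from -0.99 to 0.33 (without labelled library 3), with 0.09 without control 4. TMTC3 at OMM ranged from 2.54 to 2.77 over all settings. The genes with a lower effect at OMM than at NLS numbered 0, or 1 with DESeq2 and 0 to 1 on leaving out a library. The difference of POMT2 turned to -0.12 with DESeq2 and with DESeq2-type size factors, to -0.14 with library size alone and to -0.022 without labelled OMM library 3, within a range up to 0.54 on leaving out a library. The causes of these changes were not tested.

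The libraries at NLS share the column numbers 1 and 3, but nothing says that these pair the libraries. The deviations from the group means had a correlation of -0.033. With the replicate block 2 of the 7 genes rose and 2 fell, as without it, and over all genes 5075 rose and 5696 fell. No paired analysis was possible at OMM because the arms share 1 number.

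Over all genes at NLS 5999 rose and 5945 fell. With library size alone 9122 and 3351 did, in the joint fit 212 and 2180, and without labelled library 1 or 3 the genes that rose numbered 3196 and 3077. At OMM 20 rose and 8 fell, against 949 and 888 with DESeq2, 48 and 16 with library size alone, 321 and 145 without the filter, 1 and 0 without robust estimation, and 199 and 101 in the joint fit. Leaving out a library gave 128 to 335 higher and 76 to 279 lower. For the difference, 1561 were higher and 326 lower, with 0 to 2748 and 0 to 1454 on leaving out a library (0 and 0 without NLS control 1 or 3), 626 higher with DESeq2-type size factors, 584 higher with library size alone, 2400 lower with DESeq2 and 676 lower without the filter. TMTC2 had the lowest counts of the 7 genes, with 111 to 209 in the 4 control libraries, and the part of depth in its results was not tested.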
